A study of Mus musculus with 83 samples.

Results

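The NF-kB genes described here were Nfkb1, Nfkb2, Rela, Relb, Nfkbia, Nfkbiz, Bcl3 and Tnfaip3, taken by symbol from the table of gene counts. They are 8 of 21572 genes in that table, and 8 of the 8 passed the low-count filter that left 11889 genes for testing. The members were selected on values of Nfkbia measured in these same libraries: its level before hCG, at 1 h, its step between them and the difference of that step between vitrified and fresh follicles. Those values of Nfkbia, and the difference of its step from 1 h to 4 h, which starts from the same libraries, are therefore given without a test.

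NF-kB is a family of dimeric transcription factors. Rela, Relb and Rel are the subunits that carry a transactivation domain, while Nfkb1 and Nfkb2 encode the long precursors p105 and p100, which are processed to p50 and p52. Inhibitor proteins of the IkB family hold the dimers, Nfkbia (IkB-alpha) chiefly in the cytoplasm and Nfkbiz and Bcl3 in the nucleus, where both can also act as coactivators. Tnfaip3 encodes A20, a ubiquitin-editing enzyme that brakes the pathway upstream. Nfkbia and Tnfaip3 are classic NF-kB targets, so that the pathway feeds back on itself. In the ovary, ovulation has long been described as resembling an inflammatory reaction.

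The series holds RNA profiles of 83 follicles, each sequenced singly, from wild-type CD-1 mice, an outbred strain. All were grown for 8 days in alginate with FSH. Those of 1, 4 and 8 h were then moved to maturation medium with hCG, which acts on the luteinizing hormone receptor. That medium also held EGF, FSH and fetal bovine serum. The 0 h follicles were taken before hCG, so the step from 0 h to 1 h also holds the change of medium. The vitrified groups held follicles that had been cooled to a glass without ice before culture, 15 at 0 h, 14 at 1 h, 7 at 4 h and 12 at 8 h after hCG; the fresh groups held 18, 6, 7 and 4. Both kinds therefore shared the culture, the stimulus and every medium component. A follicle contains granulosa cells, some theca and stromal cells and 1 oocyte, and fewer cells of a type and less RNA per cell cannot be told apart in these values.

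Library titles carry 3 prefixes, which are taken as plates here, though only that of the 0 h libraries contains the word plate. All 33 libraries of 0 h, and no others, were on a plate of their own, so the step from 0 h to 1 h and the plate cannot be told apart. A shared plate held 32 libraries, with fresh follicles of 1, 4 and 8 h beside 5, 7 and 3 vitrified ones. Sample numbers in its titles repeat, between fresh 4 h and fresh 8 h and between fresh and vitrified 1 h. The labels do not say whether it was handled in more than 1 batch. If so, batch could not be told apart from vitrification at 1 h, or from the fresh step from 4 h to 8 h. The third plate carried vitrified follicles alone, 9 of 1 h and 9 of 8 h, and is shown apart as the vitrified-only plate. Where its libraries are set beside fresh ones, plate and vitrification cannot be told apart. The share of all genes without overlap between groups was not counted. Total counts were 682200 to 6504588 per library, and 11830 to 17233 genes had a count. Granulosa markers summed to 36961 to 98608 CPM (counts scaled to a fixed library total) at 0, 1 and 4 h and to 10221 to 20885 CPM at 8 h, with Amh at a median of 0 over the series. Of the 11 immune markers in the table, 9 had a median of 0, among them Ptprc, Cd68, Adgre1, Csf1r and Cd3e. The labels name no animals or culture runs, so p-values measure only the spread between libraries, which may be partly technical.

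Nfkbia lies at chr12:55489410-55492647 (GRCm38, minus strand), Nfkbiz at chr16:55811375-55838899 (minus), Bcl3 at chr7:19808462-19822770 (minus) and Tnfaip3 at chr10:19000910-19015657 (minus). Nfkb1 lies at chr3:135584655-135691547 (minus), Relb at chr7:19606217-19629438 (minus), Rela at chr19:5637483-5648130 (plus) and Nfkb2 at chr19:46304320-46312385 (plus). All 8 are annotated as protein coding. RefSeq promoter windows on GRCm38.p6 were matched for 5 of the 8 genes (Nfkbia, Nfkb2, Tnfaip3, Bcl3 and Rela), in 8 windows. The 250 bases before a start that RefSeq annotates are shown for 4 of them, as these are 3 genes with kappaB letters and, for contrast, 1 without, whose values after hCG took different courses. By the coordinates above, Nfkb2 window 1 lies inside the annotated gene, the Tnfaip3 and Bcl3 windows overlap theirs, and the Nfkbia window lies just outside. Capitals mark matches to the kappaB consensus, searched on both strands.
Nfkbia promoter, chr12:55492648-55492897, minus strand: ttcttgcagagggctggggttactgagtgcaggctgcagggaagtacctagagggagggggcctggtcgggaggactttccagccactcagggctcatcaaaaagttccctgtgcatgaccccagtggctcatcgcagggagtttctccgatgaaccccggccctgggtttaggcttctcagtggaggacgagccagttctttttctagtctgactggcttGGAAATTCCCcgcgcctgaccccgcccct
Nfkb2 promoter, window 1, chr19:46304487-46304736, plus strand: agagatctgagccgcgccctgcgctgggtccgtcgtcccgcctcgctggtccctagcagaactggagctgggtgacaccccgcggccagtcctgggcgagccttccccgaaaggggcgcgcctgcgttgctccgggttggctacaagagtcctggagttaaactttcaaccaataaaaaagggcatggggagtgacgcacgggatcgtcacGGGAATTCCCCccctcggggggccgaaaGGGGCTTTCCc
Tnfaip3 promoter, window 1, chr10:19015411-19015660, minus strand: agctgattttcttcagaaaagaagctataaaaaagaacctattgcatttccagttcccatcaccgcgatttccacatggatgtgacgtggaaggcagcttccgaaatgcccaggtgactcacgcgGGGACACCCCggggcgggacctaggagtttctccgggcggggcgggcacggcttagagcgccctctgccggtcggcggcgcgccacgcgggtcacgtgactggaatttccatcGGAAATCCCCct
Bcl3 promoter, chr7:19822756-19823005, minus strand: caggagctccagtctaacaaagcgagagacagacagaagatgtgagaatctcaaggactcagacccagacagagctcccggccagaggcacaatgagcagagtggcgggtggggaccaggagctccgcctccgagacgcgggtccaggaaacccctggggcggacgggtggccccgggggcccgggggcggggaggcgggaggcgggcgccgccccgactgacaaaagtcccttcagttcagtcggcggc

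The Nfkbia window held 1 kappaB match, GGAAATTCCC, at -29 to -20, counting the last base before the start as -1. Nfkb2 window 1 held 3, at -39 to -30, -38 to -29 and -11 to -2, of which the first and the second overlap, and Tnfaip3 window 1 held 2, at -125 to -116 and -12 to -3. A further match lay in each of the other windows of Nfkb2, and none in the Bcl3 window, the Rela window or the second Tnfaip3 window. Among 32851 windows of the same length, 7.25% held the consensus. The full cAMP response element TGACGTCA was in none of the 8 windows, against 1.55% of all, and its half-site TGACG, on either strand, was in Tnfaip3 window 1 and in Nfkb2 windows 1 and 2, against 17.8% of all. A match describes letters in a window and nothing about binding.

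Nfkbia was the most abundant member in most groups when levels were set per exon length, as CPM per kilobase of annotated exon. Its median was 41.3 CPM per kb in vitrified and 42.6 in fresh follicles at 0 h, and 201 and 190 at 8 h in the shared plate. At 1 h it stood at 11.1 CPM per kb in vitrified follicles of the shared plate and 8.63 in those of the vitrified-only plate, against 29 in fresh ones. In both of these vitrified sets Rela came first (16.3 and 23.8 CPM per kb) and Nfkbiz second (15.4 and 10.7). In the other 8 sets Nfkbia was first and Rela second. Neighbours in the order at 1 h overlapped: in vitrified follicles of the shared plate Nfkbia spanned 6.08 to 13.3, Nfkbiz 7.61 to 16.1 and Rela 12.4 to 86.9 CPM per kb. At 0 h, and again at 8 h, the lowest Nfkbia library lay above the highest Rela library in every set except vitrified 0 h, where Nfkbia reached down to 23.6 and Rela up to 29.5. Nfkb1, with a median of at most 0.269 CPM per kb in any set, was last or next to last in all 10. Tnfaip3 was below 1.4 in the median throughout.

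**Figure D1:**
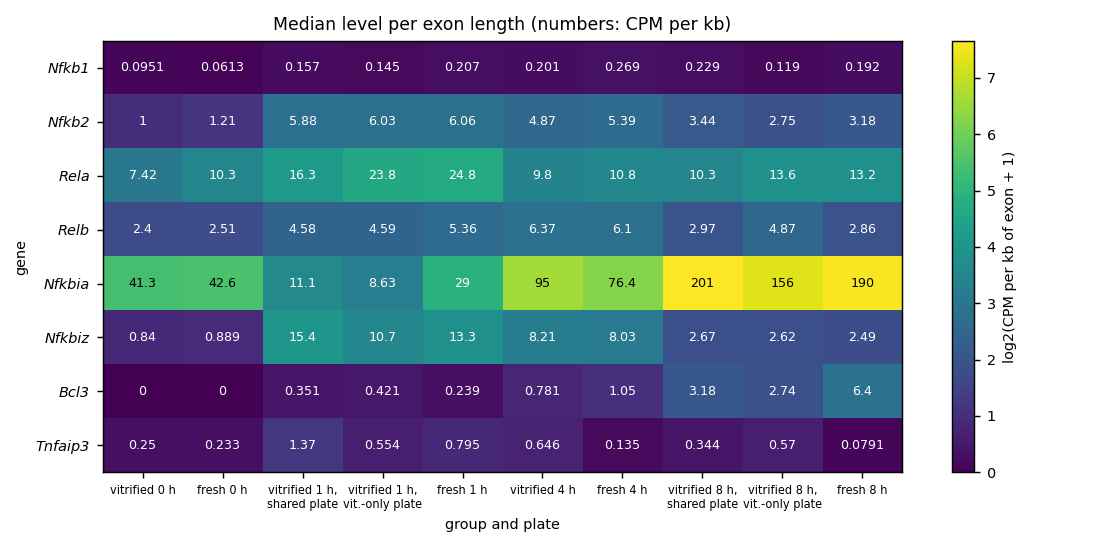
Median CPM per kilobase of annotated exon of the 8 genes (rows) in the 10 sets of libraries (columns), with colour on a log2(value + 1) scale and the medians printed. Nfkbia is the highest row except in the 2 vitrified sets of 1 h, where Rela leads.

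Nfkbia, which encodes IkB-alpha, had its lowest values at 1 h and its highest at 8 h in both kinds of follicle. At 0 h it had 38, 66.5 and 97.5 CPM (lowest, median and highest) in vitrified follicles (n = 15) and 48.6, 68.6 and 90.3 CPM in fresh ones (n = 18). At 1 h the 5 vitrified follicles of the shared plate had 9.79, 15.8, 17.8, 21.1 and 21.5 CPM, against 24.6, 46.6 and 77.8 CPM (lowest, median and highest) in 6 fresh follicles. On the vitrified-only plate the 1 h values were 9.32, 13.9 and 27.7 CPM (n = 9). Every vitrified follicle of the shared plate thus lay below the lowest fresh one, as did 8 of the 9 on the vitrified-only plate, while the 0 h groups overlapped. These values chose the members and are not tested. The log2 fold change of vitrified against fresh was -0.08 ± 0.14 (SE) at 0 h and -1.46 ± 0.24 at 1 h, that of 1 h against 0 h was -1.95 ± 0.21 in vitrified and -0.56 ± 0.19 in fresh follicles, and those steps differed by -1.38 ± 0.28. The size of the steps depends on the scaling: with total counts alone they were -2.54 in vitrified and -1.03 in fresh follicles.

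Summed immune markers at 1 h did not overlap between the kinds of follicle on the shared plate. They had 0.275, 2.17 and 9.29 CPM (lowest, median and highest) in vitrified follicles of the shared plate and 0, 0.518 and 56.3 CPM in those of the vitrified-only plate, against 21.4, 28.8 and 58.8 CPM in fresh follicles. In fresh follicles most of the sum was Lyz2, and 7, 11 and 4 of the 11 markers had a median of 0 in the same order of sets. Endothelial markers summed to 0.815 to 23 CPM in vitrified follicles of the shared plate and 0.668 to 106 CPM in those of the vitrified-only plate, against 5.32 to 102 CPM in fresh ones, with Tek and Vwf at a median of 0 over the series. At 0 h, where the Nfkbia values overlapped, immune markers summed to 0, 1.61 and 46.7 CPM (lowest, median and highest) in vitrified and 2.19, 14.6 and 100 CPM in fresh follicles. Total counts at 1 h in the shared plate were 3478459 to 5597289 in vitrified and 1719239 to 3049417 in fresh libraries. The part of these in the Nfkbia values was not tested.

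At 4 h and 8 h the vitrified and fresh values of Nfkbia overlapped again. At 4 h it had 119, 153 and 178 CPM (lowest, median and highest) in vitrified follicles and 88.2, 123 and 172 CPM in fresh ones (n = 7 each). At 8 h the 3 vitrified follicles of the shared plate had 188, 324 and 616 CPM and the 4 fresh ones 231, 291, 320 and 385 CPM. The 2 vitrified follicles at the ends lay outside the fresh range on opposite sides. On the log2 scale vitrified against fresh was 0.12 ± 0.21 at 4 h (edgeR adjusted p = 0.979) and 0.29 ± 0.29 at 8 h (edgeR adjusted p = 0.796). From 1 h to 4 h Nfkbia rose by 3.07 ± 0.23 in vitrified (edgeR adjusted p = 7.21e-18) and by 1.48 ± 0.22 in fresh follicles (2.99e-08), steps that start from the 1 h libraries that led to its choice. The p-values take no account of that choice, and the difference of the steps, 1.58 ± 0.32, is not tested for that reason. From 4 h to 8 h it rose by 1.37 ± 0.26 in vitrified (edgeR adjusted p = 5.76e-06) and 1.20 ± 0.24 in fresh follicles (1.9e-05), and every 8 h library lay above every 4 h library of its kind. The difference of these steps, 0.17 ± 0.35, did not pass (edgeR adjusted p = 0.963).

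**Figure D2:**
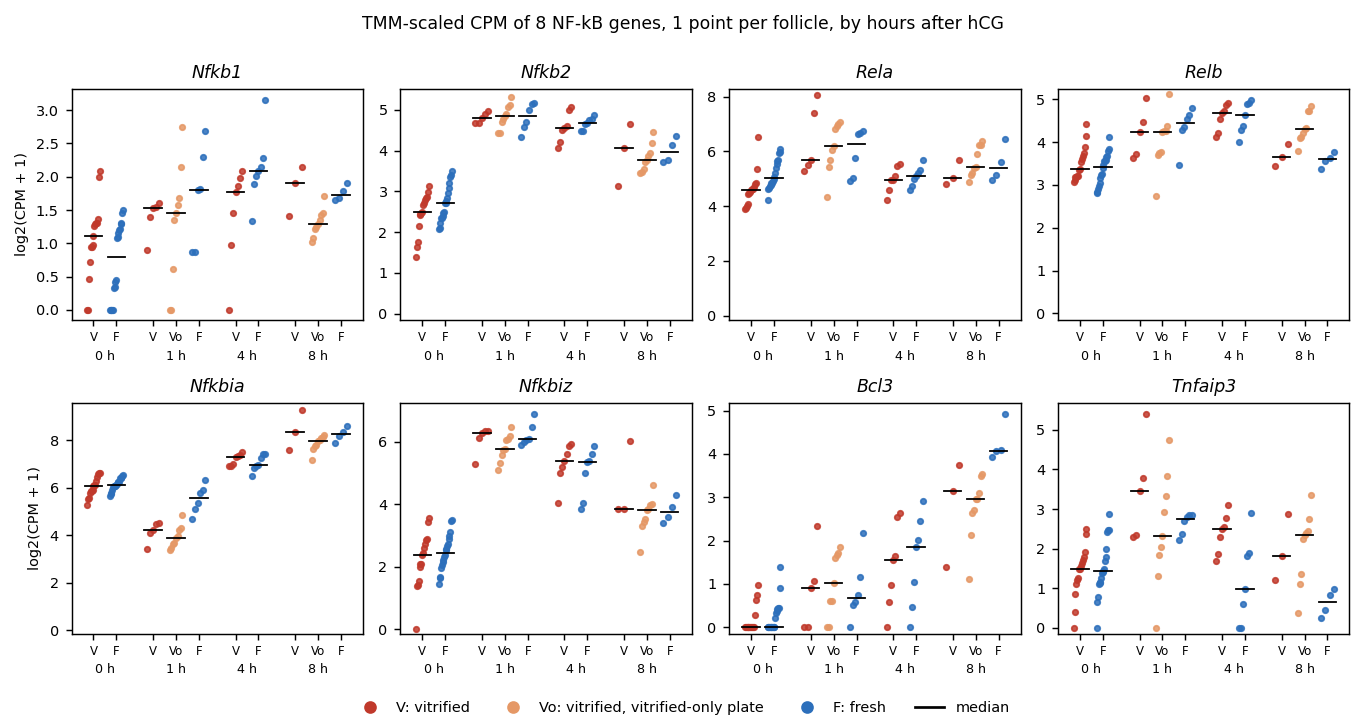
TMM-scaled CPM of each gene on a log2(CPM + 1) axis, 1 point per follicle, with the median as a line, for vitrified follicles (V), vitrified follicles of the vitrified-only plate (Vo) and fresh follicles (F) at 0, 1, 4 and 8 h after hCG. Nfkbia has its lowest points at 1 h and its highest at 8 h, Nfkbiz and Nfkb2 have their lowest at 0 h, and Bcl3 has its highest at 8 h.

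Nfkbiz, the nuclear inhibitor IkB-zeta, which the induction of some secondary NF-kB targets requires, peaked at 1 h. It had 0, 4.21 and 10.8 CPM (lowest, median and highest) in vitrified and 1.71, 4.46 and 10.3 CPM in fresh follicles at 0 h. At 1 h the vitrified follicles of the shared plate had 38.2, 69.3, 77.1, 80.4 and 80.8 CPM and the fresh ones 59.4, 66.7 and 119 CPM (lowest, median and highest). No 1 h library of either kind overlapped the 0 h libraries. The log2 fold change over this hour was 4.08 ± 0.35 in vitrified (edgeR adjusted p = 7.32e-19) and 3.89 ± 0.31 in fresh follicles (6.38e-21), and the steps differed by 0.19 ± 0.47 (0.981).

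At 4 h Nfkbiz had 15.5, 41.2 and 60.5 CPM (lowest, median and highest) in vitrified and 13.3, 40.3 and 57.4 CPM in fresh follicles. In fresh follicles all 7 of these values lay below the lowest 1 h value, and the gene fell by 1.14 ± 0.35 on the log2 scale (edgeR adjusted p = 0.00506). In vitrified follicles 3 of 7 lay below the lowest 1 h value, and the change was -0.74 ± 0.36 (edgeR adjusted p = 0.0829). Without vitrified 1 h replicate 3, the library at 38.2 CPM, that change was -0.90 with an adjusted p of 0.0462. By 8 h it had 13.3, 13.4 and 63.8 CPM in vitrified follicles of the shared plate, against 9.57, 11, 13.9 and 18.6 CPM in fresh ones. Of these, the single library at 63.8 CPM stood apart. From 4 h to 8 h Nfkbiz fell by 1.42 ± 0.41 in fresh follicles (edgeR adjusted p = 0.00537; -0.78 with an adjusted p of 0.103 under scaling by total counts alone). The change in vitrified follicles was -0.43 ± 0.43 (edgeR adjusted p = 0.461), and -1.63 with an adjusted p of 0.0133 without the library at 63.8 CPM.

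Bcl3, an atypical IkB protein that binds p50 and p52 dimers in the nucleus, was scarce until 8 h. It was at 0 in 11 of 15 vitrified and 10 of 18 fresh libraries at 0 h, and over the 28 libraries at 0 in the whole series 3 counts would be 0.440 to 4.36 CPM. At 1 h it had 0, 0, 0.869, 1.08 and 4.04 CPM in vitrified follicles of the shared plate and 0, 0.592 and 3.50 CPM (lowest, median and highest) in fresh ones. The 1 h step passed with a log2 fold change of 2.11 ± 0.86 in vitrified (edgeR adjusted p = 0.0204) and 2.06 ± 0.80 in fresh follicles (0.0191), but rested on 1 library in each kind. With total counts alone neither passed, at 1.50 in vitrified and 1.62 in fresh follicles (edgeR adjusted p = 0.097 and 0.0639). Without vitrified 1 h replicate 4 it was 1.10 (adjusted p = 0.338 by edgeR), and without fresh 1 h replicate 3 it was 1.14 (adjusted p = 0.342 by edgeR). From 1 h to 4 h the changes of 0.98 ± 0.73 in vitrified and 1.14 ± 0.75 in fresh follicles did not pass (edgeR adjusted p = 0.269 and 0.193), but passed without those same libraries (1.99 and 2.07, adjusted p = 0.04 and 0.0391). At 4 h the gene had 0, 1.93 and 5.25 CPM in vitrified and 0, 2.60 and 6.53 CPM in fresh follicles. At 8 h it had 1.62, 7.88 and 12.3 CPM in vitrified follicles of the shared plate, 1.15, 6.78 and 10.6 CPM (lowest, median and highest) in those of the vitrified-only plate, and 14.4, 15.6, 16 and 29.5 CPM in fresh follicles.

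All 3 vitrified 8 h libraries of the shared plate lay below the lowest fresh one for Bcl3. So did the 9 of the vitrified-only plate, where no fresh follicles were held and plate and vitrification cannot be told apart. Within the shared plate the log2 fold change of vitrified against fresh was -1.37 ± 0.68 and did not pass (edgeR p = 0.0531, adjusted p = 0.452); it passed only in a model with no term for the plate (-1.51, adjusted p = 0.0436). From 4 h to 8 h Bcl3 rose by 1.68 ± 0.70 in vitrified (edgeR adjusted p = 0.0373) and 2.91 ± 0.63 in fresh follicles (6.15e-05). The vitrified call was lost without vitrified 8 h replicate 1 or 2 or vitrified 4 h replicate 1, 2, 3, 5 or 7 (1.00 to 1.66, adjusted p = 0.0512 to 0.365) and by DESeq2 (1.77, adjusted p = 0.0742). The steps differed by -1.23 ± 0.94 (edgeR adjusted p = 0.823).

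Nfkb2, the p100/p52 subunit, rose at 1 h, and its 4 h values overlapped those of 1 h. It had 1.63, 4.6 and 7.73 CPM (lowest, median and highest) in vitrified and 3.23, 5.57 and 10.2 CPM in fresh follicles at 0 h. At 1 h the vitrified follicles of the shared plate had 24.6, 24.6, 27, 28.5 and 30.2 CPM and the fresh ones 19, 27.8 and 34.6 CPM. The 1 h libraries all lay above the 0 h libraries of their kind. The log2 fold change was 2.46 ± 0.22 in vitrified (edgeR adjusted p = 2.23e-18) and 2.26 ± 0.20 in fresh follicles (1.6e-18). At 4 h it had 15.7, 22.3 and 32.5 CPM in vitrified and 21.1, 24.7 and 28.3 CPM in fresh follicles, changes of -0.20 ± 0.24 and -0.17 ± 0.23 that did not pass (edgeR adjusted p = 0.504 and 0.572).

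At 8 h Nfkb2 had 7.79, 15.8 and 23.9 CPM in vitrified follicles of the shared plate and 12.1, 12.5, 16.7 and 19.6 CPM in fresh ones. All 4 fresh values lay below every fresh 4 h value, and the gene fell by 0.70 ± 0.25 on the log2 scale (edgeR adjusted p = 0.0266), whereas the vitrified change was -0.56 ± 0.28 (0.111; -1.0 with an adjusted p of 0.0177 without vitrified 8 h replicate 2). This fresh call depends on the scaling, since the change was -0.08 with total counts alone (adjusted p = 0.817) and 0.065 by limma on log2(TPM + 1) (adjusted p = 0.85). Without fresh 8 h replicate 1 or 4 the call was also lost (-0.59 each, adjusted p = 0.11 and 0.103). The 3′ end of Nfkb2 overlaps Psd on the opposite strand, which had a median of 3.83 CPM. Because the library kit does not mark strand, reads of the overlap cannot be told apart.

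Rela, the p65 subunit, had a wide range in CPM at 1 h. At 0 h it had 14, 22.8 and 90.8 CPM (lowest, median and highest) in vitrified and 17.9, 31.7 and 66.4 CPM in fresh follicles. At 1 h the vitrified follicles of the shared plate had 38, 44.8, 50.1, 166 and 267 CPM and the fresh ones 28.9, 76.1 and 107 CPM. Of the 5 vitrified libraries 2 lay above all fresh ones and the other 3 below the fresh median. Rela rose over this hour by 2.03 ± 0.35 in vitrified (edgeR adjusted p = 2.22e-07) and 0.89 ± 0.32 in fresh follicles (0.0163), and the steps differed by 1.14 ± 0.48, which did not pass (p = 0.0188, adjusted p = 0.545 by edgeR). The fresh call was lost without fresh 1 h replicate 1, 4 or 6 (0.72 to 0.76, adjusted p = 0.0622 to 0.0771) and with total counts alone (0.41, adjusted p = 0.275).

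At 4 h Rela had 17.9, 30.1 and 45.7 CPM in vitrified and 23.3, 33.3 and 50.7 CPM in fresh follicles. It fell by 1.82 ± 0.40 from 1 h in vitrified (edgeR adjusted p = 9.73e-05) and by 1.04 ± 0.39 in fresh follicles (0.0222); the fresh call was lost without the same fresh 1 h replicates (-0.87 to -0.91, adjusted p = 0.0591 to 0.0715). By 8 h it had 27.1, 31.5 and 50 CPM in vitrified follicles of the shared plate and 30.1, 33.8, 47.4 and 87.3 CPM in fresh ones. The steps from 4 h were 0.18 ± 0.48 and 0.55 ± 0.43 and did not pass (edgeR adjusted p = 0.794 and 0.328), though the fresh one was 1.20 with an adjusted p of 0.016 under total counts alone.

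Relb, the partner of p52 in the non-canonical pathway, rose at 1 h and fell again from 4 h to 8 h in the shared plate. It had 7.36, 9.31 and 20.4 CPM (lowest, median and highest) in vitrified and 6.05, 9.75 and 16.4 CPM in fresh follicles at 0 h. At 1 h the vitrified follicles of the shared plate had 11.4, 12.2, 17.8, 21.2 and 31.7 CPM and the fresh ones 9.97, 20.8 and 26.8 CPM. The groups of 1 h overlapped those of 0 h. The log2 fold change was 0.85 ± 0.22 in vitrified (edgeR adjusted p = 0.00072) and 1.05 ± 0.21 in fresh follicles (9.53e-06); with total counts alone the vitrified one was 0.27 (adjusted p = 0.313). At 4 h it had 16.3, 24.7 and 29.2 CPM in vitrified and 15, 23.7 and 30.7 CPM in fresh follicles. By 8 h it had 9.95, 11.5 and 14.4 CPM in vitrified follicles of the shared plate and 9.29, 10.9, 11.4 and 12.5 CPM in fresh ones, below every 4 h library of their kind. The fall was 0.95 ± 0.30 in vitrified (edgeR adjusted p = 0.00957) and 1.09 ± 0.27 in fresh follicles (0.00105). Both calls depend on the scaling, with changes of -0.35 (adjusted p = 0.351) and -0.45 (adjusted p = 0.183) under total counts alone, and the vitrified call was lost without vitrified 8 h replicate 1 (-0.82, adjusted p = 0.0599).

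Nfkb1, the p105/p50 subunit, gave few counts, a median of 5 per library, and was at 0 in 10 libraries. At 1 h it had 0.869, 1.62, 1.90, 1.93 and 2.04 CPM in vitrified follicles of the shared plate and 0.818, 2.50 and 5.47 CPM (lowest, median and highest) in fresh ones, against 0, 1.15 and 3.26 CPM in vitrified and 0, 0.739 and 1.82 CPM in fresh follicles at 0 h. The step was 0.46 ± 0.54 in vitrified (edgeR adjusted p = 0.502) and a rise of 1.59 ± 0.49 in fresh follicles (0.00411). A difference of these steps was not detectable at this depth (-1.14 ± 0.73, edgeR adjusted p = 0.798). No later step of Nfkb1 passed. The gene model Gm43430 lies inside Nfkb1 on the same strand, with a median of 0.646 CPM, and reads of both cannot be told apart.

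Tnfaip3, encoding A20, was also low. It had 0, 1.81 and 4.6 CPM (lowest, median and highest) in vitrified and 0, 1.68 and 6.32 CPM in fresh follicles at 0 h. At 1 h the vitrified follicles of the shared plate had 3.91, 4.04, 9.91, 12.7 and 41.6 CPM and the fresh ones 3.68, 5.74 and 6.23 CPM. The library at 41.6 CPM stood apart. The gene rose by 2.79 ± 0.51 in vitrified (edgeR adjusted p = 7.61e-07) and 1.22 ± 0.50 in fresh follicles (0.0354), the fresh call being lost with total counts alone (0.73, adjusted p = 0.191) and without fresh 1 h replicate 1, 3, 4 or 6. From 1 h to 4 h it fell by 1.66 ± 0.57 in vitrified (edgeR adjusted p = 0.0112) and 1.55 ± 0.67 in fresh follicles (0.043). The vitrified fall was -0.77 with an adjusted p of 0.289 without the library at 41.6 CPM, and the fresh call was lost when fresh 4 h replicate 2, 5, 6 or 7 or fresh 1 h replicate 1, 3, 4 or 6 was left out (-1.28 to -1.54, adjusted p = 0.0546 to 0.106).

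At 4 h Tnfaip3 had 2.22, 4.67 and 7.56 CPM in vitrified and 0, 0.973 and 6.5 CPM in fresh follicles. At 8 h it had 1.31, 2.49 and 6.33 CPM in vitrified follicles of the shared plate, 0.288, 4.12 and 9.21 CPM in those of the vitrified-only plate, and 0.178, 0.368, 0.775 and 0.978 CPM in fresh ones. All 3 vitrified libraries of the shared plate lay above the highest fresh one at 8 h, as did 8 of the 9 on the other plate, which held no fresh follicles. At 4 h 7 of 7 vitrified libraries lay above the fresh median. These values are low: over the 5 libraries at 0 in the whole series 3 counts would be 1.14 to 4.36 CPM. No 8 h library was among them. The fresh 8 h values, at most 0.978 CPM, rest on few counts, and so does the difference at 8 h. On the log2 scale vitrified against fresh was 1.42 ± 0.58 at 1 h, 1.31 ± 0.66 at 4 h and 2.60 ± 0.94 at 8 h. None passed (edgeR p = 0.0156, 0.0448 and 0.00371, adjusted p = 0.329, 0.759 and 0.107). At 8 h it passed in 3 of 12 alternatives, with 1 plate term (3.11, edgeR adjusted p = 0.0378), with no plate term (2.73, 0.0159) and by DESeq2 (2.67, 0.0494). Over the 12 the value ran from 1.66 to 3.11 (adjusted p = 0.0159 to 0.778 by edgeR or DESeq2).

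No member passed the test of vitrified against fresh follicles at any time. Of 7 members other than Nfkbia, 0 were called at 0 h and at 1 h, and of 8 members 0 at 4 h and at 8 h (edgeR's quasi-likelihood test, adjusted p of 0.05), where 0.967%, 0.555%, 0.118% and 2.06% of the 11889 genes tested were called. At an unadjusted p under 0.05 there were 0, 1, 1 and 2 members. DESeq2 called 0, 0, 0 and 1, and limma 2, 0, 0 and 0. The limma calls at 0 h were Nfkb2 (-0.39, adjusted p = 0.0333) and Rela (-0.75, adjusted p = 0.0177). Nfkb1, Bcl3 and Tnfaip3 lay below the minimum mean log2(TPM + 1) of 1 set for limma, so limma could not call them at any time. The 95% intervals of the log2 differences were widest at 8 h, where Tnfaip3 reached 4.44 and Bcl3 -2.71. The steps between times likewise gave 0 members whose vitrified step differed from the fresh one by edgeR, of 7, 7 and 8 counted in the steps to 1 h, 4 h and 8 h, where 0.16%, 0.0421% and 0.993% of all genes were called. At an unadjusted p under 0.05 there were 2, 0 and 0.

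**Figure D3:**
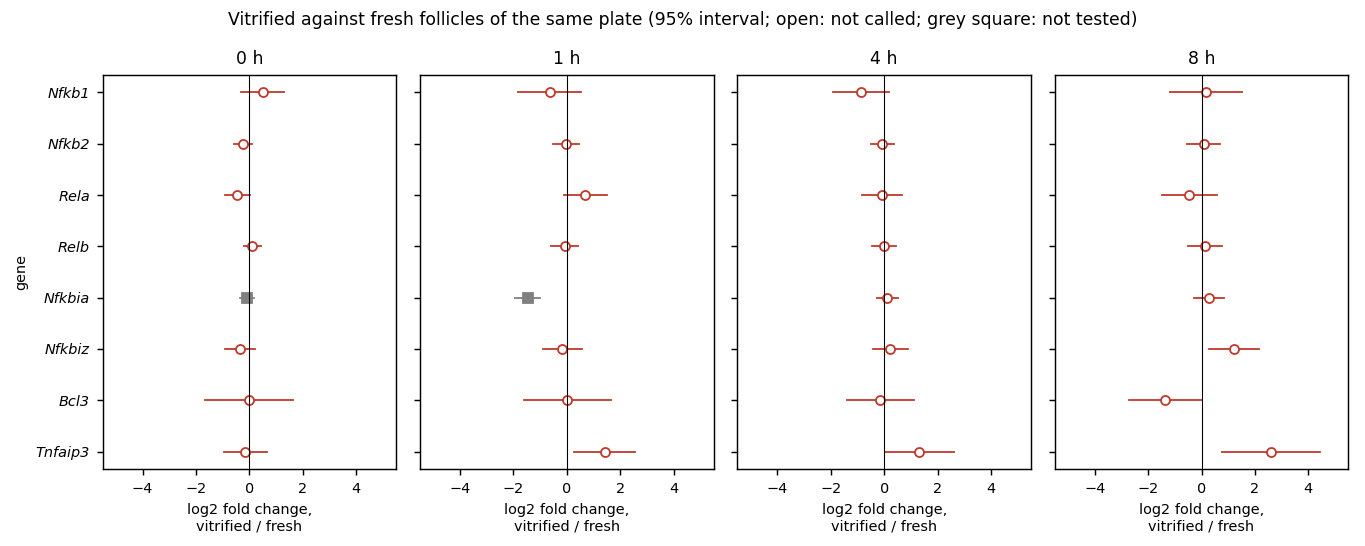
Log2 fold changes of vitrified against fresh follicles with 95% intervals (from the SE) for the 8 genes, at 0, 1, 4 and 8 h, the last 3 within the shared plate. Open points did not pass an adjusted p of 0.05; grey squares are the Nfkbia values that led to the choice of the members and were not tested, at -0.08 and -1.46.

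Most members rose in the first hour after hCG in both kinds of follicle. From 0 h to 1 h, 6 of 7 rose in vitrified follicles (43.5% of all genes called, 21.5% higher and 22% lower) and 7 of 7 in fresh ones (42.1% called, 19% higher and 23.1% lower), while Nfkbia was the one with a value below 0. With total counts alone the count was 4 in vitrified and 4 in fresh follicles. Theca and stroma markers summed to a median of 16777 CPM in vitrified follicles of the shared plate and 13459 CPM in fresh ones at 1 h, against 632 CPM in vitrified and 919 CPM in fresh ones at 0 h, and their part in the rises was not tested. That list includes Star and Cyp17a1, and the sum was not split by gene. More cells and more RNA per cell cannot be told apart in it. Scaling by total counts in place of TMM shifted the median of all genes by -0.60 in vitrified and -0.49 in fresh follicles over this step, and by 0.57 and 0.63 from 4 h to 8 h. From 1 h to 4 h, 1 rose and 2 fell in vitrified follicles (46.5% of all genes called, 20.6% higher and 25.9% lower) and 1 rose and 3 fell in fresh ones (46.4% called, 21.9% higher and 24.5% lower). The member that rose was Nfkbia, from the 1 h values that led to its choice. From 4 h to 8 h, 2 rose and 1 fell in vitrified (37.1% called, 22% higher and 15% lower) and 2 rose and 3 fell in fresh follicles (36.5% called, 20.8% higher and 15.7% lower). Under total counts alone the split of calls from 0 h to 1 h over all genes was 19% higher in vitrified and 18% higher in fresh follicles, against 49.3% and 45.1% with TMM. The split from 4 h to 8 h over all genes was 85% higher in vitrified and 87.7% higher in fresh follicles, against 59.4% and 57% with TMM. The members that rose to 8 h, Nfkbia and Bcl3, did so under both scalings.

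**Figure D4:**
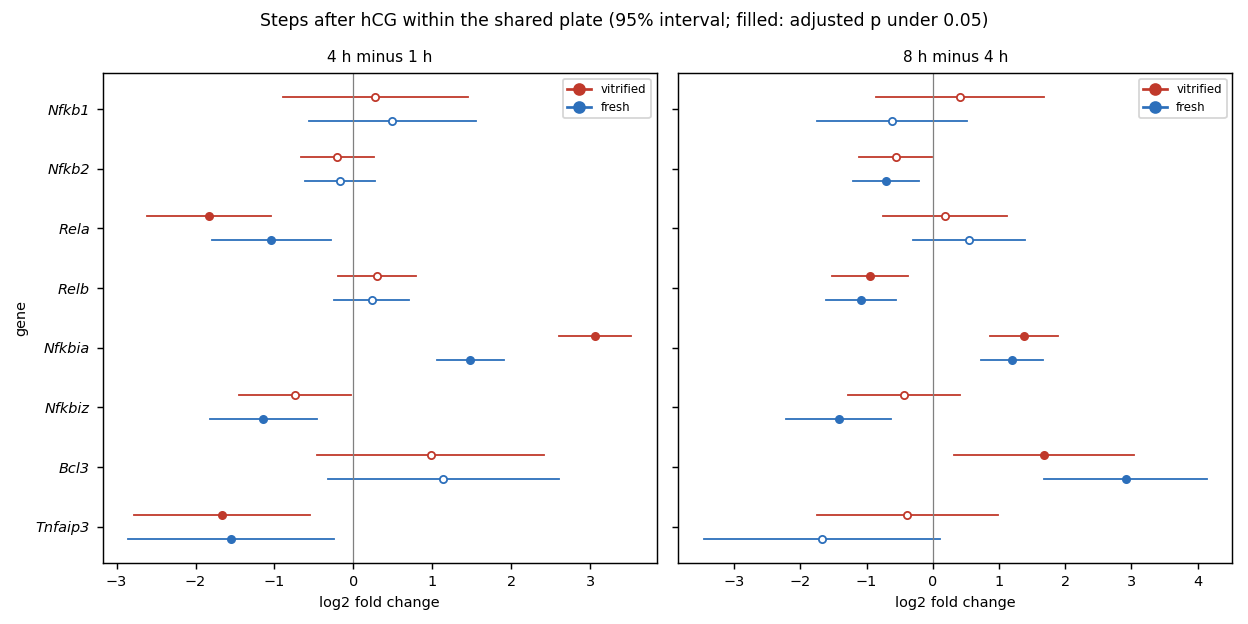
Log2 fold changes with 95% intervals from 1 h to 4 h and from 4 h to 8 h within the shared plate, for vitrified and fresh follicles; filled points passed an adjusted p of 0.05. Nfkbia lies right of 0 in both steps, Bcl3 rises from 4 h to 8 h, and Rela and Tnfaip3 lie left of 0 from 1 h to 4 h. The Nfkbia step from 1 h to 4 h starts from the values that led to its choice.

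The change from 1 h to 8 h could be read in vitrified follicles on both plates. Nfkbia rose by 4.44 ± 0.28 within the shared plate (edgeR adjusted p = 6.97e-23) and by 3.95 ± 0.20 within the vitrified-only plate (8.34e-30), where the 9 libraries of 8 h at 143, 251 and 296 CPM (lowest, median and highest) all lay above the 9 of 1 h. These Nfkbia steps start from the 1 h values that led to its choice, and their p-values take no account of that choice. Bcl3 rose by 2.66 ± 0.78 (edgeR adjusted p = 0.00188) and 2.36 ± 0.61 (0.000224). Nfkbiz fell by 1.18 ± 0.45 in the shared plate (edgeR adjusted p = 0.0298) and by 2.19 ± 0.30 in the vitrified-only plate (3.81e-09). The vitrified-only plate had Nfkbiz at 33.4, 53.5 and 87.4 CPM at 1 h and 4.6, 13.2 and 23.3 CPM at 8 h, with no overlap. The Nfkb2 changes of -0.77 ± 0.29 (edgeR adjusted p = 0.026) and -1.06 ± 0.19 (2.15e-06) depend on scaling, with 0.018 and -0.29 under total counts alone (adjusted p = 0.978 and 0.198). Rela fell by 1.64 ± 0.49 in the shared plate (edgeR adjusted p = 0.00696) and changed by -0.66 ± 0.32 in the other (0.0682), where it was above 0 under total counts alone and by limma (0.49). Tnfaip3 fell by 2.04 ± 0.69 (edgeR adjusted p = 0.0149) and changed by -1.01 ± 0.47 (0.0541). Relb changed by 0.22 ± 0.21 in the vitrified-only plate (edgeR adjusted p = 0.36), but rose there by 1.01 under total counts alone (edgeR adjusted p = 1.92e-05) and by 0.99 by limma (adjusted p = 2.14e-08). Counted over the 8, Nfkbia included, 2 rose and 4 fell in the shared plate (50.1% of all genes called, 26.2% higher and 23.9% lower) and 2 rose and 2 fell in the vitrified-only plate (59.4% called, 32% higher and 27.4% lower). Under total counts alone the median of all genes was shifted by 0.73 and 0.78 on these plates, and 78.2% and 80.3% of calls were higher, against 52.3% and 53.9% with TMM. None of the 4 falls in the shared plate passed under total counts alone, with Nfkbiz at -0.53, Rela at -0.93 and Tnfaip3 at -1.35 (edgeR adjusted p = 0.322, 0.118 and 0.0993). In the vitrified-only plate 3 then rose, Relb among them, and 1, Nfkbiz, fell. Leaving out single shared-plate libraries of 1 h or 8 h ended the calls of Nfkbiz, Nfkb2, Rela and Tnfaip3 there. Those libraries were vitrified 8 h replicates 1 and 2 and 1 h replicate 5 for Nfkbiz (-0.76 to -1.11), 8 h replicates 1 and 3 for Nfkb2 (-0.71 and -0.43), 8 h replicate 2 and 1 h replicate 4 for Rela (-1.40 and -1.05), and 8 h replicates 1 and 2 and 1 h replicate 2 for Tnfaip3 (-1.16 to -1.85).

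**Figure D5:**
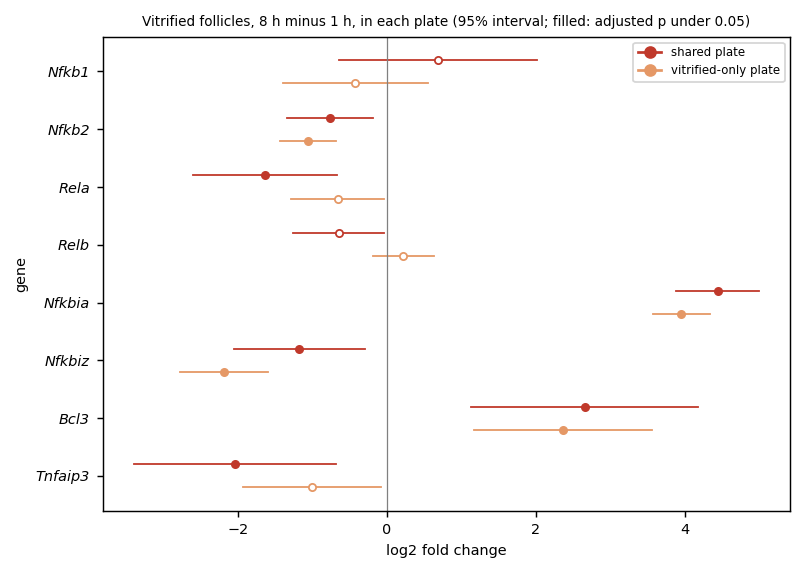
Log2 fold changes from 1 h to 8 h in vitrified follicles with 95% intervals, within the shared plate and within the vitrified-only plate; filled points passed an adjusted p of 0.05. Nfkbia and Bcl3 lie right of 0, and Nfkbiz and Nfkb2 left of 0, in both plates under TMM scaling (Nfkb2 at 0.018 and -0.29 under total counts alone). The Nfkbia steps start from the 1 h values that led to its choice.

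Between the plates themselves, vitrified 8 h follicles differed in 2 members (23.4% of all genes called, 10.3% higher and 13.1% lower) and vitrified 1 h follicles in 0 (edgeR; 1.37% called; 0 at an unadjusted p under 0.05, and 0 by DESeq2 and limma). At 8 h the vitrified-only plate was lower than the shared plate by a log2 value of -0.67 ± 0.25 for Nfkbia (edgeR adjusted p = 0.0353) and -1.27 ± 0.42 for Nfkbiz (0.0129). Both rested on vitrified 8 h replicate 3 of the shared plate, without which they were -0.11 (adjusted p = 0.856) and -0.08 (adjusted p = 0.945). That library had the highest Nfkbia, Nfkbiz, Nfkb1, Rela and Tnfaip3 of its set and the lowest Nfkb2 and Bcl3, and its theca and stroma markers summed to 13951 CPM, against 2347 and 2775 CPM in the other 2. Immune markers summed to 0.387, 2.33 and 32.8 CPM (lowest, median and highest) in the vitrified-only plate at 8 h, against 33.2, 33.6 and 36.7 CPM in the shared plate. The part of these markers in the values was not tested. Relb had a difference, vitrified-only minus shared plate, of 0.72 ± 0.28 (edgeR adjusted p = 0.0602). All 9 of its 8 h libraries on the vitrified-only plate, from 12.9 to 27.5 CPM, lay above the highest fresh 8 h library, which was on the shared plate. Within the shared plate 1 of the 3 vitrified libraries did, and vitrified against fresh was 0.12 on the log2 scale.

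Lists of other pathway genes were given by role, and were written with earlier results of these data known. Among other subunits and IkB proteins, 3 of 5 were tested. Rel, the c-Rel subunit, rose at 1 h by 1.65 ± 0.25 in vitrified (edgeR adjusted p = 6.1e-09) and 1.56 ± 0.23 in fresh follicles (5.01e-09) and fell from 1 h to 4 h by 1.29 ± 0.28 (7.6e-05) and 0.99 ± 0.28 (0.00199). Nfkbib, which encodes IkB-beta, rose from 1 h to 4 h by 2.23 ± 0.28 in vitrified (edgeR adjusted p = 2.26e-10) and 1.93 ± 0.27 in fresh follicles (6.69e-09). Neither differed between vitrified and fresh follicles at any time by an adjusted p of 0.05.

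Of 14 receptors 8 were tested. At 1 h 4 rose and 2 fell in vitrified and 3 rose and 1 fell in fresh follicles, where 43.5% and 42.1% of all genes were called, and the list medians were 0.14 and 0.02 beside -0.05 and -0.11 over all genes. Tnfrsf12a, the receptor for TWEAK, had log2 fold changes of 8.43 ± 0.32 (edgeR adjusted p = 2.6e-41) and 7.77 ± 0.27 (2.02e-43). Tnfrsf1a, the main TNF receptor, rose from 1 h to 4 h by 2.33 ± 0.27 in vitrified (edgeR adjusted p = 3.75e-11) and 1.83 ± 0.25 in fresh follicles (5.41e-09). Il1r1, the interleukin-1 receptor, fell from 4 h to 8 h by 2.84 ± 0.31 in vitrified (edgeR adjusted p = 2.7e-10) and 3.06 ± 0.28 in fresh follicles (2.82e-13). Of 12 ligands only 4 were tested; Tnf and Lta were below the filter. Tnfsf11 (RANKL) rose at 1 h by 3.27 ± 0.53 in vitrified (edgeR adjusted p = 4.21e-08) and 3.41 ± 0.51 in fresh follicles (5.19e-09). Il33, a nuclear alarmin cytokine, was at 0 in all 5 vitrified libraries of the shared plate and all 6 fresh ones at 1 h, and had 0, 0.483 and 1.17 CPM (lowest, median and highest) in vitrified and 0.380, 1.95 and 4.03 CPM in fresh follicles at 4 h (edgeR adjusted p = 0.0231 and 5.07e-05).

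Of 26 kinases and adaptors 21 were tested. At 1 h 3 rose and 9 fell in vitrified and 1 rose and 7 fell in fresh follicles (43.5% and 42.1% of all genes called), with a median of -0.61 and -0.41 beside -0.05 and -0.11 over all genes. Myd88, the adaptor of Toll-like and interleukin-1 receptors, rose from 4 h to 8 h by 2.19 ± 0.40 in vitrified (edgeR adjusted p = 2.14e-06) and 2.60 ± 0.39 in fresh follicles (1.77e-08). Chuk, the kinase IKK-alpha, was the only gene of this list called between vitrified and fresh follicles, at 8 h in the shared plate (-2.21 ± 0.63, edgeR adjusted p = 0.0466). In vitrified 8 h follicles it was higher on the vitrified-only than on the shared plate, by 1.68 ± 0.58 (edgeR adjusted p = 0.0294). Among ubiquitin editors and other brakes, 13 of 19 were tested, and from 4 h to 8 h 5 rose and 1 fell in vitrified and 4 rose and 1 fell in fresh follicles (37.1% and 36.5% of all genes called). The list medians were 0.57 and 0.43, beside 0.17 and 0.12 over all genes. Tnip1, a partner of A20, rose there by 2.87 ± 0.32 (edgeR adjusted p = 7.02e-13) and 2.37 ± 0.30 (1.13e-10), after a fall at 1 h of 1.85 ± 0.26 and 1.02 ± 0.24.

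Known NF-kB targets numbered 27, of which 14 were tested. At 1 h 7 rose and 2 fell in vitrified and 10 rose and 2 fell in fresh follicles (43.5% and 42.1% of all genes called), with list medians of 1.22 and 3.40 beside -0.05 and -0.11 over all genes. Ptgs2, the inducible prostaglandin synthase, had medians of 141 CPM in vitrified follicles of the shared plate and 103 CPM in fresh ones at 1 h, and of 2379 and 2048 CPM at 4 h, with a median of 0 in both at 0 h. Gadd45b, a stress gene, had 391 and 325 CPM at 1 h and fell from 1 h to 4 h by 6.47 ± 0.43 in vitrified (edgeR adjusted p = 1.5e-21) and 5.91 ± 0.40 in fresh follicles (1.69e-20). Between vitrified and fresh follicles 1 target was called at each of 3 times. At 0 h it was Lcn2, the iron-binding protein lipocalin 2, at 2.61 ± 0.70 (edgeR adjusted p = 0.0154). At 1 h it was Ccl2, a monocyte chemokine, with 0, 0, 0, 0.217 and 0.408 CPM in vitrified follicles of the shared plate and 0, 0.502, 1.65, 5.40, 14.8 and 16.4 CPM in fresh ones (edgeR adjusted p = 0.000242). At 8 h it was Ptx3, a pentraxin of the cumulus matrix, with 2.11, 4.99 and 7.88 CPM in vitrified follicles of the shared plate and 107, 143, 198 and 749 CPM in fresh ones (log2 fold change -5.98 ± 0.81, edgeR adjusted p = 0.000176). The 9 vitrified 8 h libraries of the other plate had 1.44, 18.9 and 44.6 CPM of Ptx3, also below the lowest fresh one.

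Likeness of pattern was measured as Pearson's r over the 10 set means of log2 CPM, as a description, since the sets share plates and times. Nfkb2 and Nfkbiz were the most alike members (r = 0.968), and Nfkbia had negative values with Rela (r = -0.583) and Tnfaip3 (r = -0.581). Every r of Nfkbia uses its 0 h and 1 h means, which led to its choice. Over all 11889 genes the closest to Nfkbia were Gpn1 (r = 0.990), Setd1b (r = 0.989) and Cnot9 (r = 0.983). Setd1b had a mean log2 CPM of 2.38 and 2.18 at 0 h in vitrified and fresh follicles, 0.47, 0.16 and 1.27 at 1 h in the shared-plate vitrified, the vitrified-only-plate and the fresh sets, 2.89 and 2.82 at 4 h in vitrified and fresh follicles, and 4.00, 3.19 and 3.79 at 8 h in the order of the 1 h sets. Its likeness was chosen over the same set means, those at 1 h included. Closest to Nfkbiz were Has1, a hyaluronan synthase (r = 0.988), Pde10a, a phosphodiesterase (r = 0.987), and Sik1, a salt-inducible kinase (r = 0.986). Ogfr led for Nfkb2 (r = 0.993), Fam91a1 for Rela (r = 0.966), Ckb for Relb (r = 0.969), Dynll1 for Bcl3 (r = 0.975), Aig1 for Nfkb1 (r = 0.905) and Gm4754 for Tnfaip3 (r = 0.904).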

How the data were processed

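RNA of single mouse follicles was made into Smart-Seq2 cDNA and Nextera XT paired-end libraries, without molecular identifiers or strand, per the labels' protocols. The authors deposited a table of estimated counts per gene (17.2% of values were not whole) and a table of log2(TPM + 1) values. The submitters' processing notes name Partek, Bowtie2, HISAT2, DESeq2 and build mm10, without roles; the counting rule is among what the sources used here do not give. Over 6518 genes the length implied by the deposited counts and TPM lay within 10% of the genomic span (introns included) for 99.8%, and of the summed exon length for 8.36%. Levels between genes are therefore given as CPM per kilobase of exon (GENCODE vM21, GRCm38), a choice made after seeing the data.

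Estimated counts were rounded, filtered (edgeR filterByExpr, minimum count 10), scaled by TMM and tested with edgeR 4.0.16 (R 4.3.3; robust quasi-likelihood fit) over all 83 libraries, with 1 mean for each of 10 sets (8 groups, with plates apart for vitrified 1 h and 8 h). There were 17 comparisons, adjusted by Benjamini-Hochberg over 11889 genes each and read at 0.05. SE came from the fitted model; intervals are 95%, cover the spread between libraries only, and CPM are counts scaled by TMM. The fit was tested on simulated data. Alternatives were total counts alone, no filter, 1 or no plate term, the compared libraries only, limma 3.58.1 on log2(TPM + 1), DESeq2 1.42.0, and leaving out each of the 32 shared-plate libraries. For limma, 7244 genes with a mean log2(TPM + 1) of at least 1 were kept, which left out Nfkb1, Bcl3 and Tnfaip3. All 8 members were named; of the lists, up to 3 called genes with the largest change per list and comparison could be named, and the 3 most alike genes per member. The members and lists were chosen with earlier results of these data known. No other column was used.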

Additional observations from a re-analysis of the deposited data

Results flagged for a closer look

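In 56 tests of the highest and lowest library of a set, 8 values stood apart from the rest of their set, where chance gives about 1 in 20. The tests did not cover every set, and no flag fell on the Nfkbiz library at 63.8 CPM of vitrified 8 h in the shared plate. Nfkbiz had a low vitrified 1 h library of the shared plate, replicate 3, at 38.2 CPM, the next being 69.3. Nfkb1 had a high fresh 4 h library, replicate 7, at 7.93 CPM (next 3.84). Relb had a high vitrified 1 h library of the vitrified-only plate, replicate 8, at 33.7 CPM (next 19.8). For Bcl3 there were 3: vitrified 1 h replicate 4 of the shared plate at 4.04 CPM (next 1.08), fresh 1 h replicate 3 at 3.50 CPM (next 1.23) and fresh 8 h replicate 1 at 29.5 CPM (next 16). For Tnfaip3 there were 2: vitrified 1 h replicate 2 of the shared plate at 41.6 CPM (next 12.7) and fresh 4 h replicate 3 at 6.5 CPM (next 2.72).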

How the results depend on the processing

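No paired analysis was possible because the labels give no replicate numbers, animals or culture runs that link libraries across groups. Counts of members called moved by over 1.5 times as follows. Limma did not test Nfkb1, Bcl3 and Tnfaip3, so its counts leave them out. With limma the counts were 2 for vitrified against fresh at 0 h, 3 from 0 h to 1 h in vitrified and 3 in fresh follicles, 1 from 4 h to 8 h in vitrified and 2 in fresh follicles, 1 from 1 h to 8 h in the shared plate and 1 between plates at 8 h. With total counts alone they were 4 from 0 h to 1 h in fresh follicles, 3 from 4 h to 8 h in fresh follicles, 2 from 1 h to 8 h in the shared plate and 1 between plates at 8 h. With the compared libraries only they were 2 and 1 in those last comparisons. For vitrified against fresh at 8 h they were 1 with 1 plate term, 2 with no plate term and 1 by DESeq2. Leaving out single libraries gave 5 to 7 members from 0 h to 1 h in fresh and 5 to 6 in vitrified follicles, 2 to 4 from 1 h to 4 h in each, 4 to 5 in fresh and 1 to 4 in vitrified follicles from 4 h to 8 h, 3 to 7 from 1 h to 8 h and 0 to 2 between plates at 8 h, and 0 elsewhere. Among values called, the sign turned for Nfkb2, from 4 h to 8 h in fresh follicles (0.065 by limma) and from 1 h to 8 h in the shared plate (0.018 with total counts, 0.048 by limma); the cause was not tested. Over all genes, vitrified against fresh gave 115 calls at 0 h (1422 by limma), 66 at 1 h (4 with the compared libraries only, 247 with no plate term), 14 at 4 h (24 by DESeq2) and 245 at 8 h (122 with 1 plate term, 709 with no plate term, 59 without vitrified 8 h replicate 3). The differences of steps gave 19 (0 to 41), 5 (0 to 10) and 118 (6 at the lowest), and the plates 163 at 1 h (1 with the compared libraries only) and 2779 at 8 h (1671 by limma, 1180 without vitrified 8 h replicate 3). From 0 h to 1 h there were 5173 calls in vitrified and 5006 in fresh follicles (2855 and 3148 by limma), and from 1 h to 4 h 5529 and 5521 (3282 and 3375 by limma). Depth limits Bcl3, Nfkb1 and Tnfaip3 most, with median counts of 1, 5 and 7.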

Other observations

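The deposited TPM values gave short genes without introns a large share: Gm10800, with a genomic span of 755 bases, reached 530391 TPM (median 220313). The ratio of genomic span to exon length ran from 1.76 for Nfkb2 and 2.01 for Nfkbia to 8.86 for Nfkb1, so that the members were scaled unequally in that table. Nfkbia had the highest median TPM in 9 of the 10 sets, and the highest median CPM per kb of exon in 8.

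The difference of steps passed for 2 known targets: Ccl2 from 0 h to 1 h (-6.52 ± 2.11, edgeR adjusted p = 0.0225) and Ptx3 from 4 h to 8 h (-5.10 ± 0.97, edgeR adjusted p = 0.00606). Lyz2, a myeloid marker, had 0, 0, 0.869, 1.22 and 6.87 CPM in vitrified follicles of the shared plate and 18.7 to 51.2 CPM in fresh ones at 1 h, in the same libraries in which Ccl2 differed, and its part in the Ccl2 values was not tested.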
